A study of Mus musculus with 8 samples.

Results

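The genes described here form the folding and stress-response machinery of the endoplasmic reticulum (ER): chaperones, disulfide isomerases, degradation factors, stress sensors and the ATF4 branch. They are 46 genes, and they were followed through every probe set of the array whose only gene symbol was one of them. All 46 genes were found, with 100 of the 45101 probe sets in the table, and 34945 probe sets carried a single symbol. One further probe set, shared by Sec61b and a predicted gene, was left out.

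Small intestines of fetal mice, taken at 18.5 days post coitum, were profiled on Affymetrix MOE430 2.0 arrays. The 8 samples, 1 per array, were 4 Plagl2 knockouts and 4 wild-types. The product of Plagl2 is a zinc finger transcription factor, and the study's title ties it to chylomicron metabolism, the handling of fat particles secreted by the gut. Titles, source names and the design text give the genotypes, whereas the extraction text calls all 8 samples wild-type. Nothing in the labels tells which stretch of Plagl2 was removed, in which cells, on which strain background, or which fetuses were littermates. The p-values therefore measure the spread between these samples. The samples were whole intestine, so a lower signal from fewer cells of a type and one from less RNA per cell cannot be told apart.

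Secreted and membrane proteins fold in the ER, where the chaperone BiP (Hspa5), its J-domain partners, the disulfide isomerases and the lectin chaperones assist them, and where failed proteins are extracted for degradation. When unfolded protein accumulates, the sensors IRE1, ATF6 and PERK signal to the nucleus. IRE1 splices the mRNA of Xbp1, ATF6 is cleaved to a transcription factor, and PERK phosphorylates eIF2 alpha, which favours translation of ATF4. XBP1 and ATF6 are known for inducing chaperones and degradation factors, and ATF4 for inducing amino acid, redox and cell death genes. Absorptive and secretory cells of the gut depend on this machinery because they export large amounts of protein and lipoprotein.

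Some promoters of the module carry recognizable elements, and examples from genes called and not called are shown here. The window was 250 bases before to 50 bases after the annotated start (RefSeq, GRCm38.p6), and both strands were searched. Windows were found for 39 of the 46 genes. The ER stress element, CCAAT and CCACG separated by 9 bases, occurred in 9 of those 39 genes (Calr, Canx, Creld2, Derl3, Dnajc3, Hsp90b1, Hspa5, Pdia6 and Syvn1) and in 0.119% of all 32851 promoters. In the sequences below the capitals mark the whole element, and each line reads 5′ to 3′ on the strand of the gene.
Hspa5: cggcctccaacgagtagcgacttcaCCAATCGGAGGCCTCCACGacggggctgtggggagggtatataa
Hsp90b1: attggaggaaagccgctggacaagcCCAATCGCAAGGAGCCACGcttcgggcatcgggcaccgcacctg
Canx: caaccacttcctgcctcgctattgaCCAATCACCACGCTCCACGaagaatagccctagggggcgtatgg
Pdia6: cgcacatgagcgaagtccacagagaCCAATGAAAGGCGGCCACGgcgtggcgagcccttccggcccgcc
Creld2: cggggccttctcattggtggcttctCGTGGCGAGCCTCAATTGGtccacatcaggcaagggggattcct
The Hspa5 stretch is chr2:34772000-34772068 on the plus strand, with the element beginning 65 bases before the start. The Hsp90b1 stretch is chr10:86705613-86705681 on the minus strand, and a further element on the opposite strand begins 107 bases before the start. The Canx stretch is chr11:50325775-50325843 on the minus strand, the Pdia6 stretch chr12:17266466-17266534 on the plus strand, and the Creld2 stretch chr15:88819495-88819563 on the plus strand. In Creld2 the element lies on the opposite strand and so reads from CGTGG to ATTGG.

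A shorter element, ATTGG and CCACG separated by 1 base, occurred in 12 promoters (0.0365% of all), among them Herpud1 and Dnajb11. In Dnajb11 it was ATTGGCCCACG, just after the annotated start (chr16:22857852-22857862, plus strand). The CEBP-ATF response element, TGATG, any base and then AA, occurred in 3.97% of all promoters and in 5 of the 39 genes (Asns, Atf3, Chac1, Herpud1 and Trib3). The examples below are of the ATF4 branch, with the element in capitals.
Asns: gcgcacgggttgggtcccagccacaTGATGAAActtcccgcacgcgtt
Chac1: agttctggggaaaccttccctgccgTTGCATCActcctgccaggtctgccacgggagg
The Asns stretch is chr6:7693210-7693257 on the minus strand and the Chac1 stretch chr2:119351024-119351081 on the plus strand, where the element is on the opposite strand. The element TGACG followed directly by TGG, in 0.676% of promoters, was in 0 of the 39. No match overlapped one of another element. A match describes letters in the window and no binding was measured.

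The Plagl2 signal itself averaged 783.5 ± 58.9 in wild-type arrays and 6.25 ± 3.40 in knockouts (SD, n = 4 each) at one of its probe sets, and its 4 probe sets all separated the genotypes without overlap. Array medians were 36 to 42, and correlations of log2 signals were 0.955 to 0.972 among arrays of the same genotype and 0.943 to 0.958 otherwise. Wild-type replicate 3 and knockout replicate 4 had the lowest mean correlation with the other arrays of their genotype, at 0.964 and 0.961, and are called the outlying arrays here. Knockout replicate 4 also carried signal of liver genes, with Alb at 4646 against 15 to 122 in wild-type arrays. In knockout replicate 1 Alb was at 656, but Fgb, another liver gene, was at 40 against 51 to 137 in wild-type arrays. Without knockout replicate 4 the same members were called. Without knockout replicate 1, 8 members were called lower and 0 higher, with Canx, Pdia6 and Creb3l2 lost. Xist, the RNA of the inactive X chromosome, gave 1828 in knockout replicate 2, 1410 in knockout replicate 3 and at most 47 elsewhere, so the sexes were not balanced. Control probe sets at the 3′ end exceeded those at the 5′ end by 0.048 ± 0.035 (log2, SD) in the 4 knockouts and by -0.016 ± 0.029 (SD) in the 4 wild-types (exact two-sided permutation test, p = 0.0286, the smallest possible for 4 against 4).

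Of the 46 genes, 10 fell in the knockout, 1 rose and 35 did not pass the test. The genes that fell were 5 chaperones and co-chaperones (Hsp90b1, Dnajb9, Dnajb11, Sdf2l1 and Creld2), 3 disulfide isomerases (Pdia3, Pdia4 and Pdia6), the lectin chaperone Canx and the degradation adaptor Sel1l. The membrane-bound transcription factor Creb3l2 rose. The 6 genes of the sensor and Xbp1 group, the 9 genes of the ATF4 branch and both translocon genes gave 0 calls. Differences are knockout minus wild-type on the log2(signal + 16) scale, each gene is read at its brightest tested probe set, and a call is a limma adjusted p under 0.05 over all 27022 probe sets tested.

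Across all 12838 genes tested, 15.1% were called, 8.51% as lower and 6.60% as higher. Of the 46 members, 23.9% were called and 21.7% were lower. The median difference over the members was -0.10, with 30 negative and 16 positive values, against 0.025 over all genes, of which 46.8% were negative. All 4 knockout arrays lay below all 4 wild-type arrays for 9 members, where 11.1% of all genes did so, and above them for 2 members, where 8.87% of all genes did so. By probe set, 15 of 92 tested fell and 1 rose, against 12.0% of all probe sets called in either direction. The other 8 probe sets were too dim for the test, and their groups overlapped (exact permutation p = 0.20 to 0.914).

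**Figure D1:**
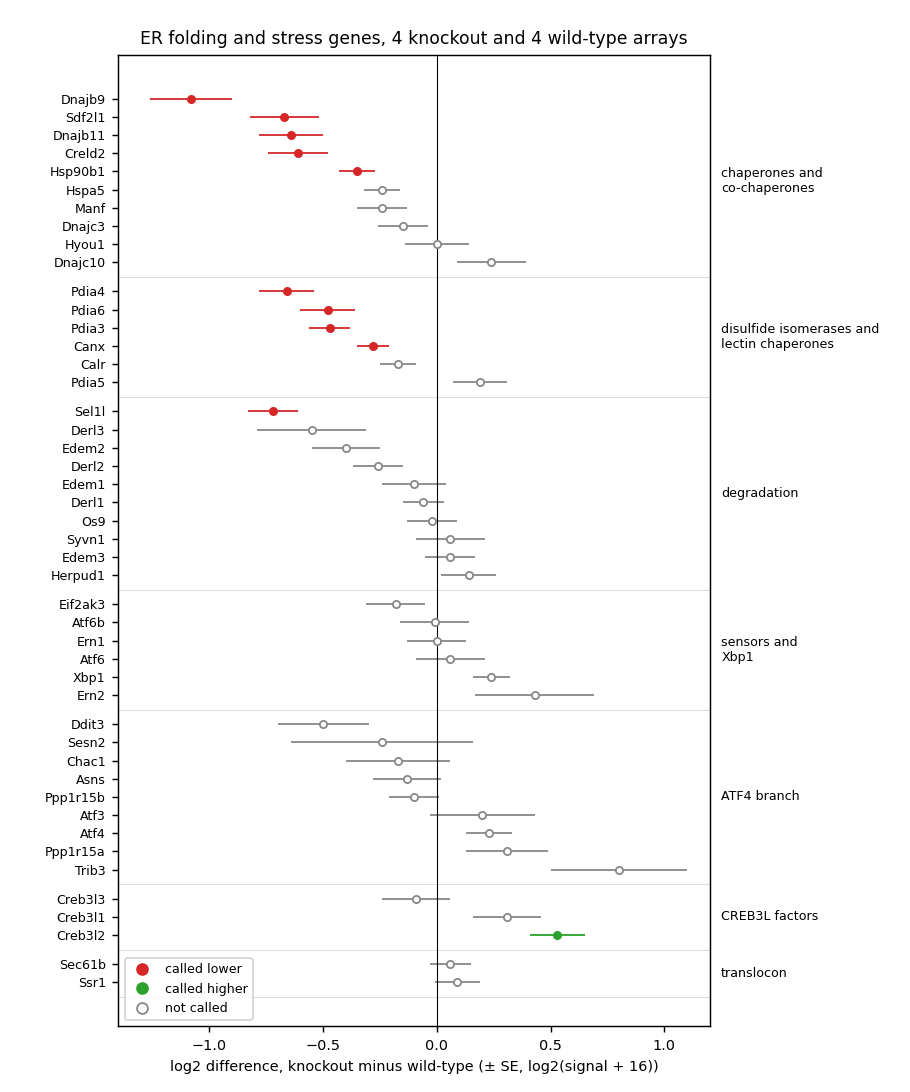
The log2 difference (knockout minus wild-type, log2(signal + 16) scale, bars ± SE from limma) of each of the 46 genes, grouped by role, with filled points for called genes. The 10 called lower are chaperones, isomerases, Canx and Sel1l, and the single gene called higher is Creb3l2.

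The chaperones and co-chaperones had 5 of 10 members lower, 0 higher and a median difference of -0.30. Dnajb9, a J-domain co-chaperone of BiP also known as ERdj4, fell most. Its signals were 1708, 1722, 1243 and 1965 in the wild-type arrays and 734, 750, 1087 and 579 in the knockouts. Knockout replicate 3 was the highest knockout and still lay below wild-type replicate 3, the lowest wild-type. The mean fell from 1660 ± 302 to 787.5 ± 214 (SD, n = 4 each), which is 52.5% lower, with a difference of -1.08 ± 0.18 (SE, limma adjusted p = 0.00199).

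Dnajb11 encodes ERdj3, a J-domain protein that hands clients to BiP. It gave 604, 663, 557 and 656 in wild-type and 415, 400, 484 and 293 in knockout arrays. The groups did not overlap, and the difference was -0.64 ± 0.14 (SE, limma adjusted p = 0.0108), a mean 35.8% lower. Sdf2l1, whose protein works in a complex with ERdj3, had wild-type signals of 507, 521, 499 and 479 and knockout signals of 283, 318, 424 and 235. The wild-type arrays lay within a narrow range, while knockout replicate 3 stood closest to them. The difference was -0.67 ± 0.15 (SE, limma adjusted p = 0.0119).

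Creld2, an ER-resident protein with EGF-like domains, had 456, 460, 433 and 447 in wild-type and 256, 272, 379 and 261 in knockout arrays. Here too knockout replicate 3 was the highest knockout and lay below every wild-type array. The difference was -0.61 ± 0.13 (SE, limma adjusted p = 0.00812). Hsp90b1 encodes GRP94, the HSP90 of the ER, and was far brighter. It gave 4004, 3997, 4106 and 3572 in wild-type and 2823, 2997, 3184 and 3258 in knockout arrays, again with no overlap. The difference was -0.35 ± 0.08 (SE, limma adjusted p = 0.0106), a mean 21.8% lower, and a second probe set gave -0.63 ± 0.14 (SE, limma adjusted p = 0.0136).

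Hspa5, the chaperone at the centre of the response, did not pass the test. Its signals were 4313, 4079, 4055 and 3877 in wild-type and 3277, 3165, 4009 and 3374 in knockout arrays. Of the knockouts, 3 lay below every wild-type array and replicate 3 lay among them. The difference was -0.24 ± 0.08 (SE, limma adjusted p = 0.0896), and its other probe sets gave -0.21 and -0.24. Without knockout replicate 3 it was -0.32 ± 0.07 (SE, limma adjusted p = 0.0130). With all arrays kept, Hspa5 was called lower under quantile normalization, under array weights and when its probe sets were averaged.

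Of the remaining chaperones, Manf, a small ER protein that is also secreted, was at -0.24, and past the threshold without knockout replicate 3 (-0.35, limma adjusted p = 0.0237). Dnajc3, a co-chaperone that also inhibits eIF2 alpha kinases, was at -0.15 and Hyou1, an ER relative of HSP70, at -0.00. Dnajc10, a J-domain protein that reduces disulfides, was at 0.24. None of these 4 passed the main test with all 8 arrays, and array weights put Manf past the threshold.

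**Figure D2:**
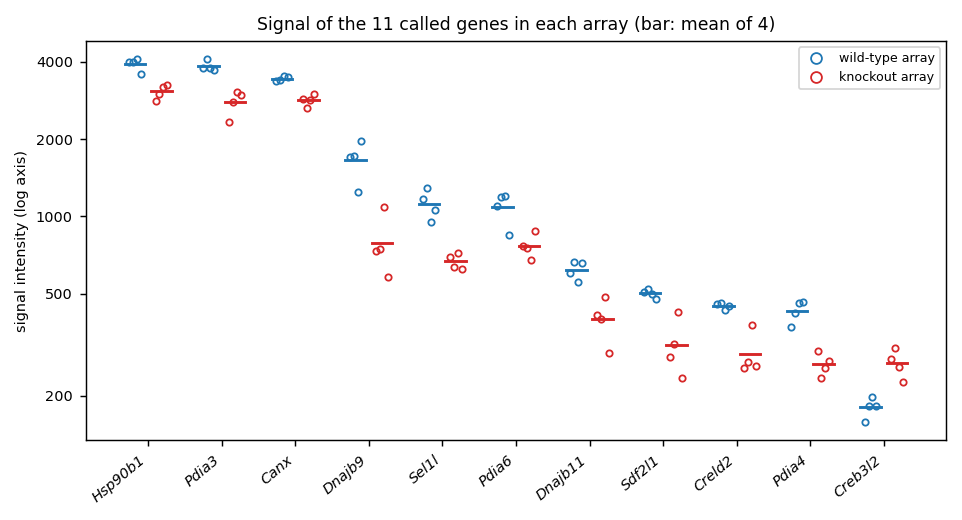
Signal intensity (log axis) of the 11 called genes in each array, in order of brightness, with blue circles for wild-type, red for knockout and bars for the mean of 4 arrays. The groups are apart for every gene but Pdia6, whose highest knockout (880) lies above its lowest wild-type array (850).

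Among disulfide isomerases and lectin chaperones, 4 of 6 fell, 0 rose and the median difference was -0.38. Pdia4, an isomerase with several thioredoxin domains, gave 371, 421, 462 and 464 in wild-type and 300, 235, 256 and 273 in knockout arrays. All knockouts were lower, and the mean fell from 429.5 ± 43.7 to 266 ± 27.5 (SD, n = 4 each). Its difference was -0.66 ± 0.12 (SE, limma adjusted p = 0.00270). Pdia3, or ERp57, the isomerase that works with the lectin chaperones, gave 3796, 4104, 3784 and 3732 in wild-type and 2334, 2781, 3053 and 2982 in knockout arrays. Its groups were also apart, at -0.47 ± 0.09 (SE, limma adjusted p = 0.00506). When all probe sets of a gene were averaged, Pdia3 and Pdia4 were no longer called, each having one further, dim probe set.

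Pdia6, or P5, an isomerase that associates with BiP, gave 1095, 1194, 1205 and 850 in wild-type and 765, 755, 679 and 880 in knockout arrays. It is the called gene whose groups overlapped, with wild-type replicate 4 below knockout replicate 4. The difference was -0.48 ± 0.12 (SE, limma adjusted p = 0.0265). The call ended when replicate 1 or 2 of the wild-types was removed, or replicate 1, 2 or 3 of the knockouts (limma adjusted p up to 0.0902).

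Canx, the membrane-bound lectin chaperone calnexin, gave 3358, 3401, 3517 and 3480 in wild-type and 2859, 2640, 2830 and 3007 in knockout arrays. The knockouts were all lower, by 17.6% in the mean, and the difference was -0.28 ± 0.07 (SE, limma adjusted p = 0.0219). Its other probe sets gave -0.52 ± 0.08 (SE, limma adjusted p = 0.00150) and -0.32, the latter not called. The call at the brightest probe set ended when replicate 1, 2 or 4 of the wild-types was removed, or replicate 1 or 2 of the knockouts (limma adjusted p up to 0.0879). Calr, the soluble counterpart calreticulin, was at -0.17 and its other probe sets at -0.17 and -0.23, while the isomerase Pdia5 was at 0.19, and neither passed the test.

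Degradation gave a single call among 10 genes, and a median difference of -0.08. That is 10.0% lower, near the 8.51% of all genes. Sel1l, the membrane adaptor that holds the ubiquitin ligase HRD1 to its substrates, gave 1169, 1293, 955 and 1061 in wild-type and 693, 638, 723 and 625 in knockout arrays. The knockouts stayed within a narrow range below the lowest wild-type array, and the mean fell from 1120 ± 145 to 669.8 ± 46.1 (SD, n = 4 each), which is 40.2% lower. The difference was -0.72 ± 0.11 (SE, limma adjusted p = 0.000849). Of its 4 other probe sets, 3 were also called lower, at -0.68, -0.83 and -0.88, and the dimmest was at -0.66 (limma adjusted p = 0.0513).

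The partner of Sel1l, the HRD1 ligase Syvn1, was at 0.06, and Herpud1, a stress-induced organizer of the same complex, at 0.14. The mannosidase-like factors that mark glycoproteins for disposal were at -0.10 for Edem1, -0.40 for Edem2 and 0.06 for Edem3. A second, dim Edem3 probe set was at 0.63 ± 0.21 (SE, limma adjusted p = 0.0824), and a second Edem1 probe set at 0.09. The derlins, membrane proteins of the export channel, were at -0.06 for Derl1, -0.26 for Derl2 and -0.55 for Derl3. Derl3 was dim, with 56.25 ± 16.6 in wild-type and 33.75 ± 14.4 in knockout arrays (SD, n = 4 each). The lectin Os9 was at -0.02. None of these 9 passed the main test with all arrays. Edem2 passed without wild-type replicate 3 (-0.52, limma adjusted p = 0.02), and Derl2 without knockout replicate 3 (-0.35, limma adjusted p = 0.0334). Array weights, which kept all arrays, put both past the threshold.

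**Figure D3:**
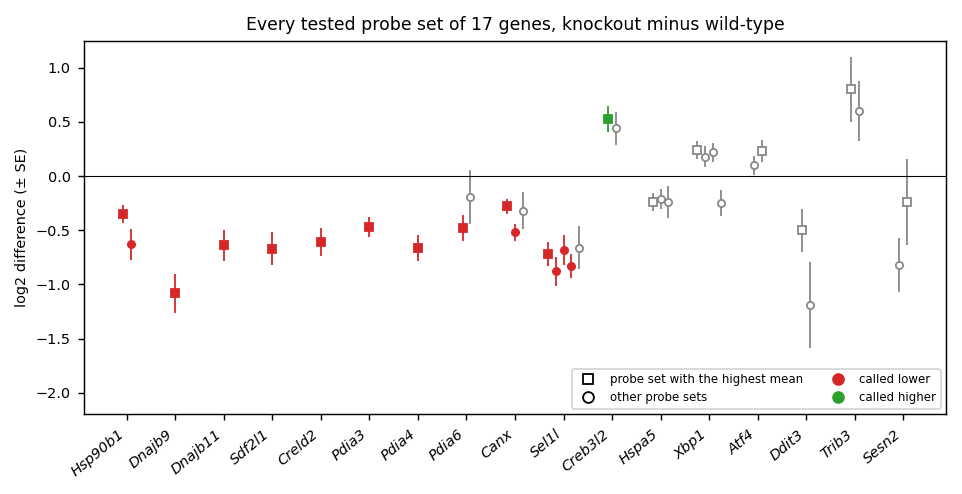
The log2 difference (± SE, limma) at each tested probe set of 17 genes, squares for the probe set with the highest mean and circles for the others, filled where called. All 5 Sel1l probe sets and both Hsp90b1 probe sets are negative, whereas the 4 Xbp1 probe sets lie on both sides of 0.

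The sensors and Xbp1 gave 0 calls of 6, with a median difference of 0.03. Across all genes 15.1% were called, and with so few members 0 calls does not set the group apart from that share. Ern1, which encodes IRE1 alpha, gave 121, 131, 116 and 151 in wild-type and 123, 121, 146 and 127 in knockout arrays, which overlap throughout. Atf6 gave 90, 110, 83 and 92 in wild-type and 103, 79, 93 and 119 in knockout arrays, and overlapped likewise. Eif2ak3, the gene of PERK, gave 273, 246, 189 and 261 in wild-type and 206, 203, 218 and 213 in knockout arrays. Its knockout arrays fell within the wild-type range, and the differences were -0.00, 0.06 and -0.18 ± 0.13 (SE) for Ern1, Atf6 and Eif2ak3. Atf6b, the close relative of Atf6, was at -0.01. Ern2, which encodes IRE1 beta of mucosal epithelium, was dim and at 0.43 ± 0.26 (SE, limma adjusted p = 0.335).

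At its brightest probe set Xbp1 was higher in every knockout than in every wild-type array, without passing the test. It gave 2408, 2312, 2112 and 2268 in wild-type and 2679, 2536, 2887 and 2688 in knockout arrays. The difference was 0.24 ± 0.08 (SE, limma adjusted p = 0.0595). Quantile normalization gave 0.27 (limma adjusted p = 0.0215), and a filter that left out the dimmest 60% of probe sets also put it past the threshold (limma adjusted p = 0.0425). Its other probe sets were at 0.22, 0.18 and, for the dimmest, -0.25. The groups were apart at the first of these and overlapped at the next. At the dimmest the order was opposite, with every knockout (125 to 143) below every wild-type array (146 to 191). These are signals of Xbp1 mRNA, and its splicing was not measured here.

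In the ATF4 branch 0 of 9 genes were called, with 5 negative and 4 positive values and a median of -0.10. Beside the 15.1% called among all genes, a group this small is not set apart by 0 calls. Atf4 gave 803, 856, 747 and 832 in wild-type and 841, 974, 945 and 1069 in knockout arrays. Only knockout replicate 1 lay within the wild-type range, and the difference was 0.23 ± 0.10 (SE, limma adjusted p = 0.149). Another Atf4 probe set of similar brightness was at 0.10 ± 0.09 (SE, limma adjusted p = 0.56). There most knockouts lay within the wild-type range of 772 to 943. Ddit3, the gene of the pro-apoptotic factor CHOP, gave 182, 230, 171 and 236 in wild-type and 103, 122, 215 and 134 in knockout arrays. Of its knockouts, 3 were below every wild-type array and replicate 3 was not. The difference was -0.50 ± 0.20 (SE, limma adjusted p = 0.127), and -0.70 ± 0.15 (SE, limma adjusted p = 0.0134) without knockout replicate 3. Array weights and the 6 arrays without Xist signal also put Ddit3 past the threshold. Its dimmer probe set was at -1.19 ± 0.40 (SE, limma adjusted p = 0.0772), with overlapping groups.

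The largest value in the branch belonged to Trib3, a pseudokinase induced with CHOP, at 0.80 ± 0.30 (SE, limma adjusted p = 0.113), with dim signals of 33 ± 20.4 in wild-type and 63.5 ± 12.9 in knockout arrays (SD, n = 4 each). The transcription factor Atf3 was at 0.20, asparagine synthetase (Asns) at -0.13 and the glutathione-degrading enzyme Chac1 at -0.17. The eIF2 alpha phosphatase subunits were at 0.31 for the inducible Ppp1r15a and -0.10 for the constitutive Ppp1r15b. The probe sets of Sesn2, a stress-induced regulator of nutrient signalling, differed from each other, at -0.24 ± 0.40 for the one with the higher mean and -0.82 ± 0.25 (SE, limma adjusted p = 0.0506) for the other. None of these 6 genes, nor Trib3, passed the test with all arrays. Averaging its probe sets put Trib3 past the threshold, and leaving out wild-type replicate 3 together with knockout replicate 4 did so for Sesn2.

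**Figure D4:**
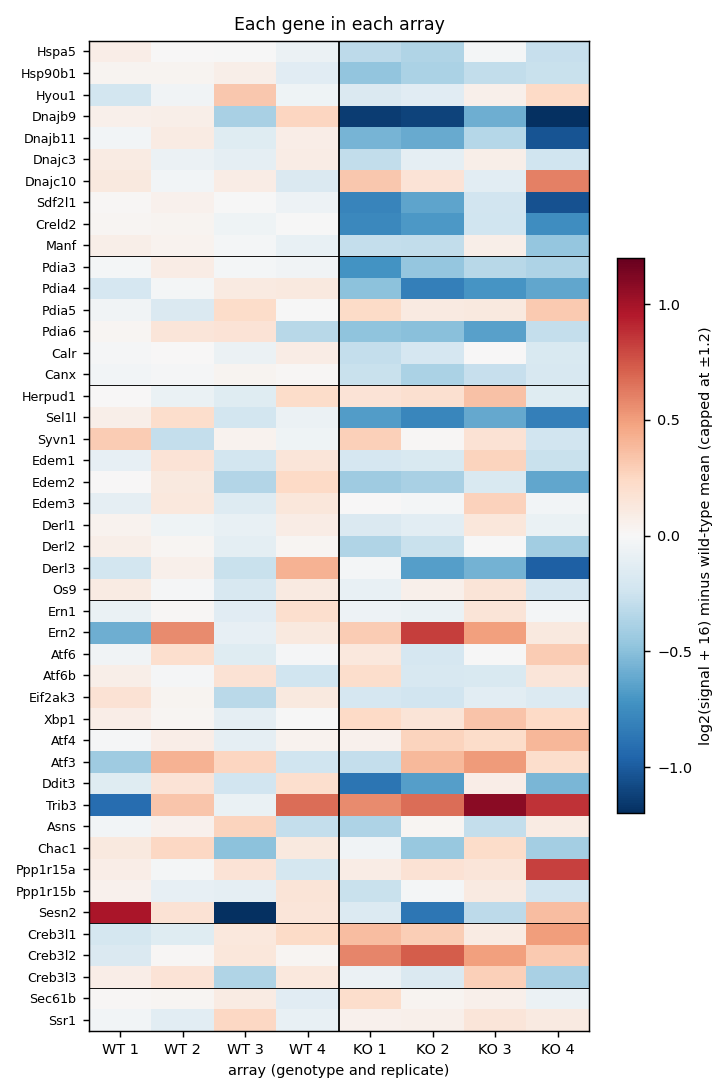
Each of the 46 genes in each of the 8 arrays, as log2(signal + 16) minus the wild-type mean of the gene, in the order of the roles, with colours capped at ± 1.2. Knockout replicate 3 is the palest knockout in several chaperones, and ATF4 branch genes show mixed colours within both genotypes.

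Creb3l2 was the only member that rose. Its product, also called BBF2H7, is a membrane-bound bZIP factor released by cleavage in the Golgi, and is known for raising secretory capacity in cartilage. It gave 158, 182, 199 and 183 in wild-type and 279, 308, 259 and 227 in knockout arrays. All knockouts were above all wild-type arrays, 48.6% higher in the mean, with a difference of 0.53 ± 0.12 (SE, limma adjusted p = 0.0158). A dimmer probe set was at 0.44 (limma adjusted p = 0.0834), with the groups again apart. The call ended when replicate 1 of the wild-types was removed, or replicate 1 or 2 of the knockouts (limma adjusted p up to 0.0622). Its relatives did not pass the test. Creb3l1, known as OASIS, was at 0.31. Creb3l3, a factor of liver and intestine tied to lipid metabolism, was abundant (2876 ± 447 in wild-type and 2719 ± 547 in knockout arrays, SD, n = 4 each) and at -0.09. The translocon genes Sec61b, a channel subunit, and Ssr1, of the associated TRAP complex, were at 0.06 and 0.09.

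Knockout replicate 3 was the highest knockout array in 6 of the 10 genes that fell, replicate 4 in 3 and replicate 1 in 1. Wild-type replicates 3 and 4 were each the lowest wild-type array in 4 of the 10. Without knockout replicate 3, 13 genes were called lower, with Hspa5, Manf, Ddit3 and Derl2 gained and Pdia6 lost. All 10 stayed negative under every one of the 22 alternatives, and Dnajb9 and Sel1l were called under all of them. With this 3′ to 5′ ratio entered as a covariate, only Dnajb9 (-1.25, limma adjusted p = 0.0264) and Sel1l (-0.91, limma adjusted p = 0.00652) were still called. Of the others, the differences with the covariate were -0.82 for Dnajb11, -0.67 for Sdf2l1, -0.64 for Pdia4, -0.53 for Creld2, -0.43 for Pdia6, -0.32 for Pdia3, -0.25 for Hsp90b1, -0.23 for Canx and 0.51 for Creb3l2. The standard errors of all 11 were larger than without the covariate. In the 6 arrays without Xist signal 8 members were called lower, with Canx, Hsp90b1 and Pdia6 lost, Ddit3 gained, and Creb3l2 no longer called. The 3′ to 5′ ratio was 0.017 to 0.098 in knockout and -0.055 to 0.007 in wild-type arrays. These ranges do not overlap, so the fit with this covariate cannot tell RNA quality apart from genotype. Xist signal was high only in knockouts, and the 6 arrays without it kept knockout replicates 1 and 4 alone. The part of sex and of RNA quality in these results was not tested beyond these fits.

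**Figure D5:**
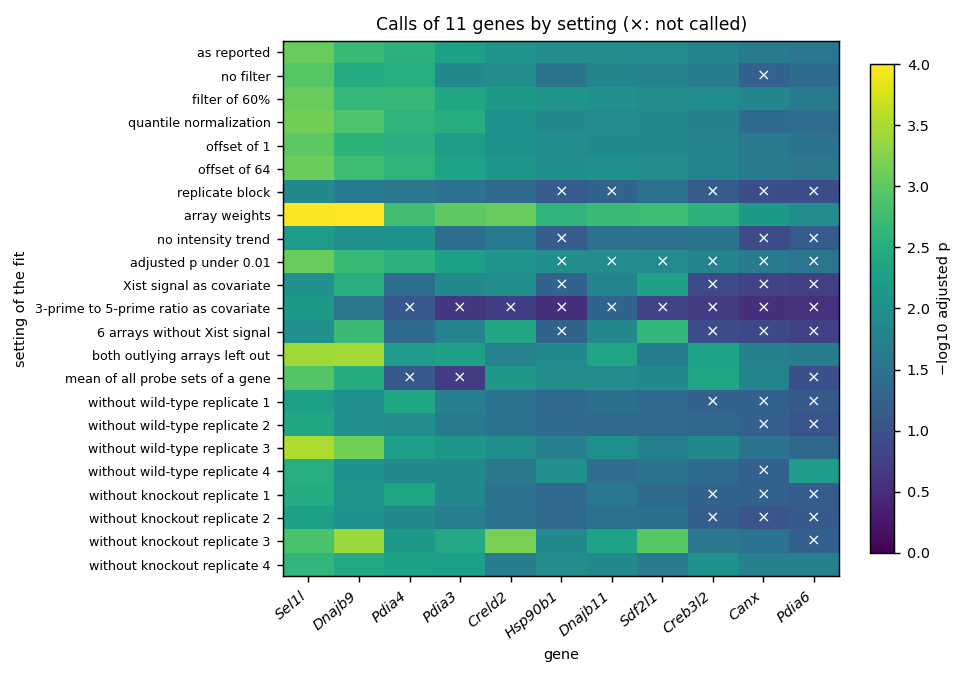
Negative log10 of the limma adjusted p for the 11 called genes (columns) as reported and under 22 alternative settings (rows), with a cross where the gene was not called. Sel1l and Dnajb9 have no cross, and Canx and Pdia6 have 12 each.

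The elements shown above were set beside these calls. The longer ER stress element was in the windows of 4 of the 10 genes that fell (Canx, Creld2, Hsp90b1 and Pdia6) and in 5 other members, Hspa5 among them. The shorter element was in Dnajb11, which fell, and in Herpud1, which was not called. The CEBP-ATF element was in 0 of the 10. Dnajb9, Sdf2l1, Pdia3, Pdia4 and Sel1l, which also fell, had none of the elements searched.

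Other genes of the pathway, 131 of them tested in 6 lists, gave 15 lower and 11 higher calls, which is 11.5% and 8.4% against the 8.51% and 6.60% of all genes. Of 17 translocation and signal cleavage genes, only the signal peptidase subunit Spcs2 was called, at 0.41 ± 0.09 (SE), a call lost without wild-type replicate 1 (limma adjusted p = 0.0511). Of 18 N-glycosylation genes only Stt3b was called, a catalytic subunit of the oligosaccharyltransferase, which fell from 3159 ± 141 to 2283 ± 90 (SD, n = 4 each; -0.47 ± 0.07, SE, limma adjusted p = 0.00106). The list medians were 0.00 and -0.08.

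Oxidative folding gave 3 lower and 3 higher among 27 tested, with a median of 0.05. Ero1b, an oxidase that recharges disulfide isomerases, fell from 137.8 ± 12.9 to 60.75 ± 10.0 (SD, n = 4 each; -1.01 ± 0.14, SE). The thioredoxin-related membrane protein Tmx2 fell by 0.55 and Sil1, the nucleotide exchange factor of BiP, which was named after its values were seen, fell by 0.53. The prolyl hydroxylase subunit P4ha1 rose by 0.86 and the isomerase Agr2, which is made by goblet cells, by 0.68. Txndc5 rose by 0.42. The call of Txndc5 ended when replicate 2 or 4 of the wild-types was removed, or replicate 1, 2 or 4 of the knockouts (limma adjusted p up to 0.0928). That of Sil1 ended for each of these and for wild-type replicate 1 (limma adjusted p up to 0.109).

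Of 23 further degradation genes, 3 fell and 1 rose (17.4% called, near the 15.1% of all genes), with a median of 0.00. Selenok, a selenoprotein that binds the extraction ATPase p97, fell from 2020 ± 382 to 1108 ± 56.6 (SD, n = 4 each; -0.84 ± 0.13, SE, limma adjusted p = 0.00112). The ubiquitin ligase Rnf139 fell by 0.45 and the lectin Erlec1 by 0.39, while the deubiquitinase Yod1 rose by 0.70. Other Erlec1 probe sets were at 0.31 and -0.04, neither called. Averaging the probe sets of each gene ended the calls of Erlec1 and Rnf139. Removing replicate 2 or 4 of the wild-types, or replicate 1 or 2 of the knockouts, ended the call of Rnf139 (limma adjusted p up to 0.0678), and leaving out any of these, wild-type replicate 1 or knockout replicate 3 ended that of Erlec1 (up to 0.111).

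Further ATF4 targets and eIF2 alpha kinases moved in both directions, with 7 lower and 5 higher of 36 tested and a median of 0.11. The share called was 33.3%, against 15.1% of all genes, and was the largest among the pathway lists. By direction, 19.4% were lower and 13.9% higher, against 8.51% and 6.60% of all genes. Whether this share exceeds that of other gene lists of the same size was not tested. Phgdh, which commits carbon to serine, fell from 3208 ± 120 to 1070 ± 173 (SD, n = 4 each; -1.58 ± 0.11, SE, limma adjusted p = 2.96e-06). Psph, the last step of the same route, fell by 0.97. The enzyme between them, Psat1, named after its values were seen, was at 0.38 and did not pass the test. The transcription factor Cebpb fell from 865.8 ± 86.7 to 441.2 ± 12.5 (SD, n = 4 each; -0.94 ± 0.10, SE) and the tyrosyl-tRNA synthetase Yars by 0.71. The mitochondrial serine enzyme Shmt2 rose by 0.80. Among 10 other stress factors the oxidative stress regulator Nfe2l2 rose by 0.71, and Creb3, a relative of Creb3l2, fell by 0.44, a call that ended when replicate 1, 2 or 4 of the wild-types was removed, or replicate 1 or 2 of the knockouts (limma adjusted p up to 0.0970). Their list median was -0.13.

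Cell-type markers moved in the same arrays. The summed signal of 11 goblet markers ranged from 6928 to 13960 in wild-type and from 13274 to 17896 in knockout arrays, which overlap, with 3 markers higher, 1 lower and 7 not called. That of 8 enteroendocrine markers ranged from 2489 to 3367 in wild-type and from 999 to 2204 in knockout arrays, with 5 lower. The 6 leukocyte markers summed to 3848 to 5397 in wild-type and 1512 to 1826 in knockout arrays, with only Csf1r called. Without Csf1r the other 5 summed to 974 to 1091 in wild-type and 849 to 968 in knockout arrays. Of 5 plasma cell markers, 4 were under the filter. The sum of the 5 was 803 to 1025 in wild-type and 464 to 572 in knockout arrays, nearly all of it Prdm1, which fell from 852.8 to 439.5. The 4 dim markers summed to 56 to 110 and 31 to 80, which overlap. The sum of the 5 thus followed Prdm1 alone and is no measure of plasma cells.

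The sums of the remaining lists overlapped between genotypes, as those of the goblet markers did. The 9 enterocyte markers summed to 57844 to 73052 in wild-type and 59467 to 74781 in knockout arrays, with 0 called. The 7 general epithelial markers gave 18982 to 21550 and 20578 to 25687 (3 higher, 1 lower), the 8 of mesenchyme and smooth muscle 14111 to 21309 and 16313 to 25776 (0 called). Markers of neighbouring organs and blood were 880 to 3513 and 839 to 5202 for 7 of pancreatic acinar cells (0 called), 10851 to 13923 and 6843 to 15759 for 5 of liver (Ttr and Cps1 lower), and 195 to 398 and 241 to 779 for 3 of erythroid cells (0 called). The acinar marker Ctrb1 was at 1584 and 1388 in wild-type replicates 2 and 3 and 2603 in knockout replicate 1. It was at 211 to 324 in the other arrays. Cps1, the brightest liver marker, was at 5608 to 7997 in every array, also in knockout replicate 2, where Alb was at 4. Without Cps1 the other 4 liver markers summed to 4195 to 5999 in wild-type and 674 to 9187 in knockout arrays. In wild-type arrays nearly all of this was Ttr, at 4033 to 5856, whereas Alb was at 15 to 122. Ttr was at 633 to 3279 in knockout arrays. Among the liver markers Ahsg was at 453 in knockout replicate 4 and 86 in knockout replicate 1 against 3 to 13 in wild-type arrays. Fgb was at 809 in knockout replicate 4 but 40 in knockout replicate 1, against 51 to 137 in wild-type arrays. The part of any of these cell types in the folding genes was not tested.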

How the data were processed

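RNA of 8 small intestines was hybridised to 1 array each, per the labels. The deposited table gives the authors' signal intensity per probe set on a linear scale, already scaled to a common trimmed mean (2% off each end) of about 150.05. The signal algorithm is not given in the sources used here. Value columns without a sample numbered 0.

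Symbols came from the platform annotation, and promoter sequences from RefSeq (GRCm38.p6). Signals were taken as log2(signal + 16). The dimmest 40% of probe sets (mean under a signal of about 23) were dropped, which kept 27022 of 45037, and limma 3.58.1 (R 4.3.3) was used to fit genotype (eBayes with trend, two-sided, Benjamini-Hochberg). The fit was tested on simulated data. Precision is limited by the number of arrays. The members and lists were chosen with earlier results of these data known. Values in every array are given for called members, Hspa5, Xbp1, Atf4, Ddit3, Ern1, Atf6 and Eif2ak3. Of each pathway list up to 5 called genes with the smallest p are named; others were chosen after their values were seen. Same-numbered samples were not paired in the labels, and the correlations of their deviations were -0.011, -0.046, -0.274 and -0.12, so no block was used. The fits of pathway genes under each alternative were added after seeing the data.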

Additional observations from a re-analysis of the deposited data

Results flagged for a closer look

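In 4 of 92 groups of 4 arrays (4.3%), 1 array of a member gene lay far from the other 3, and chance alone gives about 1 group in 20. Creld2 had a signal of 379 in knockout replicate 3, against 256 to 272 in the other knockouts. Without that array its difference was -0.74 ± 0.10 (SE, limma adjusted p = 0.000672). Edem1 had 624 in the same array, against 426 to 454, and Edem3 had 850, against 685 to 703. Without it Edem1 was at -0.22 and Edem3 at -0.01, and neither was called. Ppp1r15a had 151 in knockout replicate 4, against 85 to 91 in the other knockouts.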

How the results depend on the processing

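Under the replicate block, 6 members were called lower and 0 higher, with 3 chaperones and 2 isomerases or lectin chaperones among them, and 1164 and 751 probe sets of the whole table were lower and higher, against 1811 and 1427. The calls lost were those of Canx, Dnajb11, Hsp90b1, Pdia6 and Creb3l2. The labels do not pair same-numbered arrays, and 0 wild-type arrays correlated best with their own number. With 4 arrays per genotype this cannot show that no pairing exists. A threshold of 0.01 left 5 members lower and 0 higher (2 chaperones, 2 isomerases or lectin chaperones), 8 pathway genes outside the list lower, and 1060 and 660 probe sets. The 3′ to 5′ covariate left 2 lower and 0 higher (1 chaperone, 0 isomerases or lectin chaperones), 9 pathway genes lower, and 919 and 471 probe sets. With the Xist covariate and with the 6 arrays without Xist signal, 0 members were higher, 2 isomerases or lectin chaperones were lower and 8 pathway genes were lower, with 755 and 807 probe sets higher. Without the intensity trend 2 isomerases or lectin chaperones were lower. Array weights gave 15 members lower, 3 of them degradation genes and 1 of the ATF4 branch, with 17 pathway genes and 2631 probe sets higher. Leaving out both outlying arrays (wild-type replicate 3 and knockout replicate 4) gave 2 degradation genes and 1 ATF4 branch gene lower. The 60% filter and quantile normalization gave 2 members higher, as did averaging each gene's probe sets, which gave 1 isomerase or lectin chaperone lower and 1 ATF4 branch gene higher. Over the fits that left out 1 array each, 8 to 13 members were lower and 0 to 1 higher, with 2 to 4 isomerases or lectin chaperones, 1 to 2 degradation genes and 0 to 1 ATF4 branch genes lower, and 9 to 19 pathway genes lower and 876 to 2085 probe sets higher. No direction of a called member turned in any fit, and the cause of each change was not tested.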
